A study of Arabidopsis thaliana with 12 samples.

Results

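The 10 genes described here make salicylic acid, control its synthesis or respond to it, and were chosen by gene identifier, 10 of 33559 identifiers in the files. They are the synthesis genes ICS1 and EDS5, the regulators EDS1, PAD4, WRKY70 and ACD6, and the response genes PR1, BGL2 (PR2), PR5 and PCC1. Transcripts were measured by RNA sequencing of poly(A) RNA from Arabidopsis thaliana seedling shoots harvested at 14 days. The groups were the inbred accessions Col and C24 and the 2 hybrids between them, labelled Col/C24 and C24/Col, with 3 replicates each and 12 libraries in all. The labels call the hybrids wild type, name no mutation or treatment for any group, and put all plants in short days with an 8 h day at 22 °C and a 16 h night at 18 °C. Which parent of a hybrid was the mother, and how many plants made up a library, are not stated in the sources used here. P-values therefore measure only the spread between these samples, which may be technical.

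Salicylic acid is the hormone through which Arabidopsis resists pathogens that feed on living tissue. Most of it is made from chorismate in the chloroplast by isochorismate synthase, exported, and completed in the cytosol. The lipase-like proteins EDS1 and PAD4 act upstream and in a feedback loop with it, and the hormone then switches on secreted pathogenesis-related (PR) proteins through the coactivator NPR1 and its TGA partner factors.

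Values are RPKM, reads per kilobase of gene per 1e6 mapped reads, at depths estimated at 15.6 to 27.1 M reads (M being 1e6). For a 1500 bp gene, 3 reads were worth between 0.0738 and 0.128 RPKM, which speaks for counting error alone. Shoot markers (RBCS1A, CAB2, RCA) summed to 20350 to 28730 RPKM per library, and of 5 root and 5 flower markers 4 each lay below 1 RPKM in every library. The remaining marker of each list did not. The root marker PYK10 stood at 70.1 to 113 RPKM and the flower marker SEP3 at 1.2 to 3.54 RPKM. In a bulk shoot sample, fewer cells of a type and less RNA per cell cannot be told apart. Libraries with the same replicate number deviated together across all genes (correlations of 0.54 to 0.83 over 18 pairs), and the 4 libraries of replicate 1 stood apart in heat-response genes. The share of ribosomal RNA exceeded 2% in Col 1, Col 2, Col/C24 1 and Col/C24 3 (the number after a group is the replicate) and was at most 1.22% elsewhere.

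All 10 genes reached 1 RPKM in at least 3 libraries and entered the test, although BGL2 passed that limit with no Col library above 0.76 RPKM. WRKY70 had the highest mean over the libraries (24.8 RPKM) and EDS5 the lowest (1.36 RPKM). Transcripts of EDS1, PAD4, EDS5 and WRKY70 stood highest in replicate 1 of every group. Those of BGL2, PCC1, ICS1 and WRKY70 were higher in every C24 than in every Col library, and those of ACD6 and PR5 were lower. How many of all genes separate the accessions in this way was not counted, and ICS1 and PR5 did not pass the test below. The PR genes also differed widely between libraries of the same group. The dot plot and the colour map show the 12 libraries gene by gene.

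**Figure D1:**
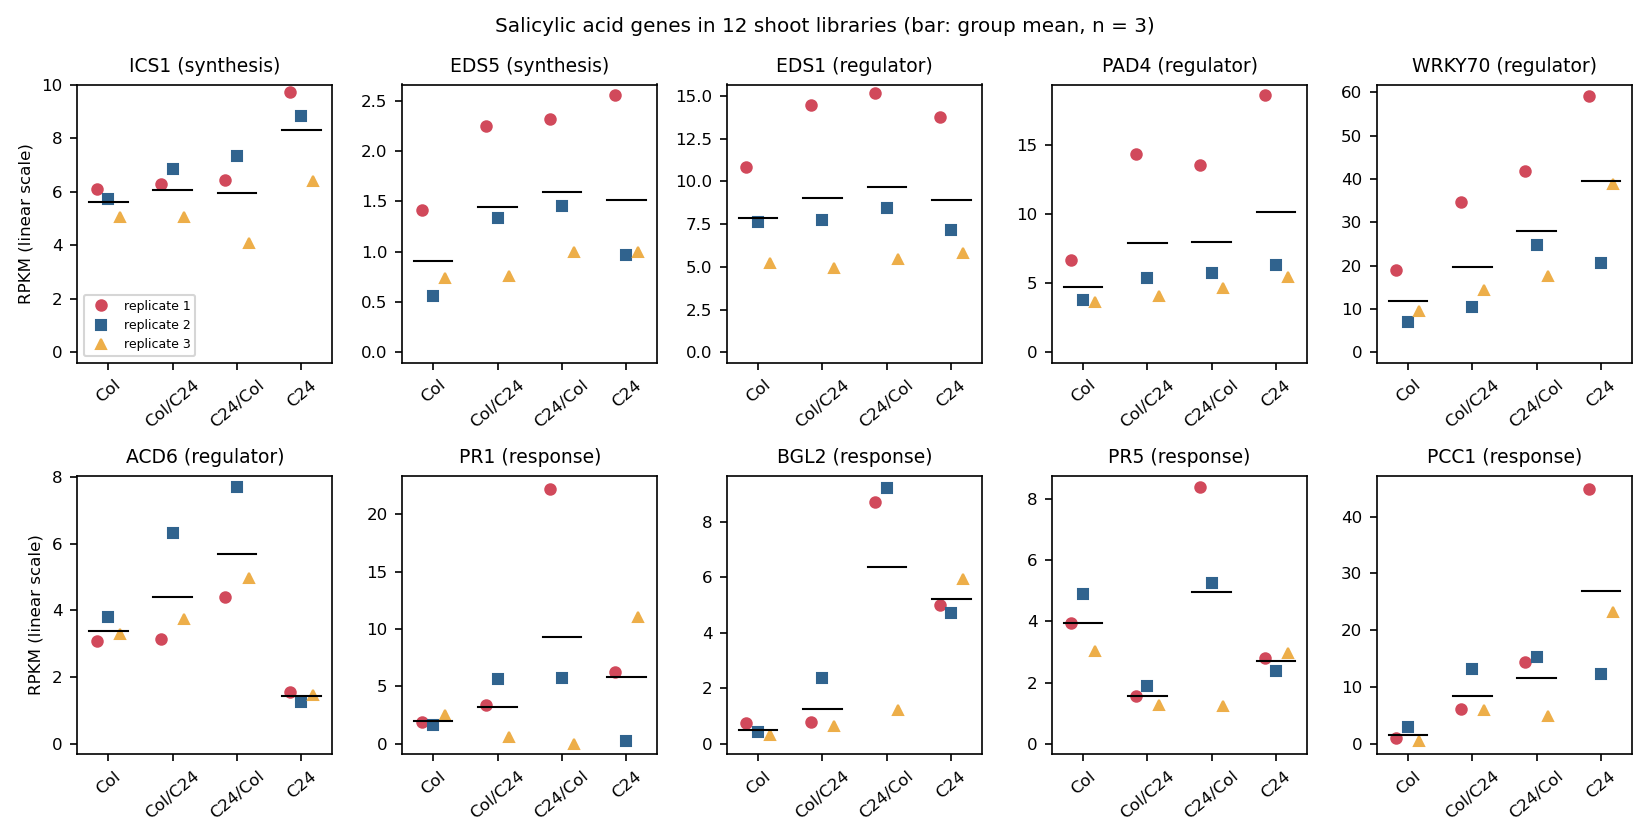
RPKM (linear y axis) of each gene in the 12 libraries, by group on the x axis, with replicates 1, 2 and 3 as circles, squares and triangles and the group mean (n = 3) as a bar. EDS1, PAD4, EDS5 and WRKY70 are highest in the replicate 1 library of every group, and ACD6 is lowest in the 3 C24 libraries (1.25 to 1.55 RPKM).

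**Figure D2:**
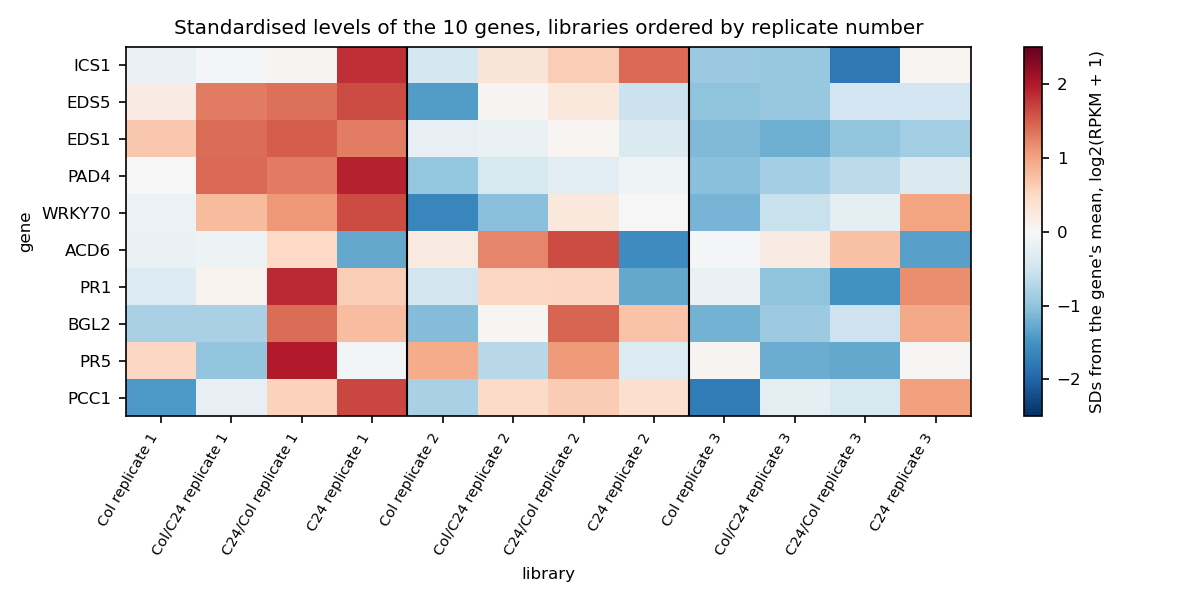
Each gene's log2(RPKM + 1) in each library, in SDs from that gene's mean over 12 libraries, with the libraries on the x axis ordered by replicate number and black lines between the numbers. The rows of EDS5, EDS1, PAD4 and WRKY70 reach 1.28 to 1.93 SDs in C24 replicate 1, and PR5 peaks at 1.99 SDs in C24/Col replicate 1.

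ICS1 (AT1G74710; chromosome 1, 28070295 to 28074177, plus strand), the isochorismate synthase that makes most of the salicylic acid precursor, varied least, with its highest library 2.39 times its lowest. It stood at 6.08, 5.71 and 5.05 RPKM in Col replicates 1 to 3, at 9.72, 8.84 and 6.40 in C24, at 6.28, 6.83 and 5.04 in Col/C24, and at 6.44, 7.33 and 4.07 in C24/Col. All 3 C24 libraries lay above all 3 Col libraries, and the hybrids overlapped both. EDS5 (AT4G39030; chromosome 4, 18185437 to 18189224, plus strand), the chloroplast envelope transporter that exports the precursor, stood at 1.41, 0.56 and 0.74 RPKM in Col, at 2.56, 0.97 and 1.0 in C24, at 2.25, 1.33 and 0.76 in Col/C24, and at 2.32, 1.45 and 1.0 in C24/Col. Its highest value in each group was that of replicate 1, and the groups overlapped.

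EDS1 (AT3G48090; chromosome 3, 17755329 to 17758147, minus strand), the lipase-like protein at the head of the pathway, gave 10.8, 7.60 and 5.21 RPKM in Col, 13.8, 7.15 and 5.78 in C24, 14.5, 7.74 and 4.93 in Col/C24, and 15.2, 8.44 and 5.48 in C24/Col. In each of the 4 groups replicate 1 was the highest and replicate 3 the lowest, and across groups the values of the 3 numbers did not overlap. PAD4 (AT3G52430; chromosome 3, 19431095 to 19434450, plus strand), its binding partner, gave 6.70, 3.80 and 3.65 RPKM in Col, 18.6, 6.30 and 5.47 in C24, 14.3, 5.34 and 4.10 in Col/C24, and 13.5, 5.71 and 4.63 in C24/Col. The replicate 1 libraries were again the highest of each group, and the 2 other C24 libraries did not reach the replicate 1 value of Col. WRKY70 (AT3G56400; chromosome 3, 20908711 to 20910623, minus strand), a transcription factor that promotes salicylic acid responses and restrains jasmonate responses, gave 18.9, 6.91 and 9.54 RPKM in Col, 59.2, 20.6 and 38.9 in C24, 34.6, 10.4 and 14.4 in Col/C24, and 41.7, 24.7 and 17.63 in C24/Col. The C24 libraries all exceeded the Col libraries. Within a group replicate 1 was the highest.

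ACD6 (AT4G14400; chromosome 4, 8294165 to 8299195, plus strand), a membrane protein with ankyrin repeats that drives a positive loop with salicylic acid and whose alleles differ among accessions, ran the other way. It stood at 3.08, 3.81 and 3.30 RPKM in Col, at 1.55, 1.25 and 1.47 in C24, at 3.15, 6.32 and 3.75 in Col/C24, and at 4.39, 7.71 and 4.96 in C24/Col. No C24 library reached any Col or hybrid library, and the highest values of both hybrids were in replicate 2. TAIR10 is a Col genome, and whether C24 reads of ACD6 mapped to it less often was not tested.

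PR1 (AT2G14610; chromosome 2, 6241640 to 6242541, minus strand), a small secreted protein and the usual marker of the response, was the most erratic of the 10. It stood at 1.94, 1.64 and 2.51 RPKM in Col, at 6.22, 0.24 and 11.1 in C24, at 3.40, 5.65 and 0.60 in Col/C24, and at 22.2 and 5.70 in C24/Col replicates 1 and 2, while it was listed at 0 in C24/Col replicate 3, where 1 read would be worth 0.0711 RPKM. The C24 libraries thus lay on both sides of Col, and both replicate 3 hybrids lay below every Col library. BGL2 (AT3G57260; chromosome 3, 21188397 to 21189967, minus strand), a beta-glucanase that attacks fungal walls, stood at 0.76, 0.44 and 0.32 RPKM in Col, at 4.99, 4.71 and 5.93 in C24, at 0.78, 2.39 and 0.64 in Col/C24, and at 8.70, 9.21 and 1.22 in C24/Col. C24 was even and above all Col libraries, and the hybrids spread from the Col level to above C24.

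PR5 (AT1G75040; chromosome 1, 28177670 to 28179022, plus strand), a thaumatin-like protein, stood at 3.94, 4.91 and 3.03 RPKM in Col, at 2.79, 2.39 and 2.96 in C24, at 1.55, 1.90 and 1.28 in Col/C24, and at 8.39, 5.26 and 1.23 in C24/Col. The Col/C24 libraries lay below both parents, as did C24/Col replicate 3. PCC1 (AT3G22231; chromosome 3, 7845823 to 7846833, minus strand), a small membrane-associated protein under pathogen and clock control, stood at 1.12, 2.96 and 0.57 RPKM in Col, at 44.9, 12.4 and 23.3 in C24, at 6.18, 13.2 and 5.96 in Col/C24, and at 14.4, 15.3 and 4.89 in C24/Col. Every C24 and hybrid library exceeded every Col library. The PCC1 values are uncertain, because its neighbour AT3G22235 matches it at 99.4% identity over 478 of its 1011 bases and reads may be shared. That copy stood at 3.63, 4.44 and 1.39 RPKM in Col, at 16.0, 4.66 and 9.75 in C24, at 8.88, 13.4 and 8.16 in Col/C24, and at 16.2, 14.8 and 5.68 in C24/Col. The hybrid libraries of the copy ran from 5.68 to 16.2 RPKM beside 4.66 to 16.0 in C24, and those of PCC1 from 4.89 to 15.3 beside 12.4 to 44.9. For the other 9 genes the closest gene, where blastn found one, had at most 81.7% identity over its aligned stretch. The copy nearest to PR1, AT2G14580, was 80.9% identical over 650 bases and stood at 5.29 to 15.7 RPKM, lower in all C24 libraries than in any Col library.

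The regions before the genes were read for the letters that WRKY and TGA factors bind, since both families act in salicylic acid responses. The motifs were chosen with the values known, and 4 windows are shown because they hold them before genes that moved, EDS5 and EDS1 with the replicate number, PCC1 with the accession and WRKY70 with both. This choice by itself pairs motif with movement, and the window of PR5, which also holds a motif, is not shown. Windows are the 250 bases before the gene start in the RefSeq annotation of TAIR10.1, whose coordinates are used throughout. The submitters' processing notes name TAIR10, and the files hold no coordinates. The W-box, the element of WRKY factors, was searched as TTGACC or TTGACT and the core of the TGA factor element as TGACG, each on both strands, where overlaps between motifs were allowed. A W-box was present before PR5, EDS5 and EDS1, 3 of 10 genes, against 28.4% of 27443 nuclear protein-coding genes. TGACG was present before PCC1 and WRKY70, 2 of 10 genes, against 18.6% of those genes. Both counts lie near the share of all these genes. TGACG occurred 3 times before PCC1, starting at -104, -89 and -78, and 2 times before WRKY70, at -76 and -61. The 4 windows are printed 5' to 3' along the gene's strand, with the motifs of either strand in capitals (CGTCA is TGACG on the other strand, and AGTCAA is TTGACT on the other strand).
EDS5 (chr4:18185187-18185436, plus strand): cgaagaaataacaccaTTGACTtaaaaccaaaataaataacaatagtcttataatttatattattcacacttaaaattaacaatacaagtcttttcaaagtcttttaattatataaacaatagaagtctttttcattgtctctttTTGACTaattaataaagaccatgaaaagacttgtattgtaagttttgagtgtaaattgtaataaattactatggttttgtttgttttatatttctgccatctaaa
EDS1 (chr3:17758148-17758397, minus strand): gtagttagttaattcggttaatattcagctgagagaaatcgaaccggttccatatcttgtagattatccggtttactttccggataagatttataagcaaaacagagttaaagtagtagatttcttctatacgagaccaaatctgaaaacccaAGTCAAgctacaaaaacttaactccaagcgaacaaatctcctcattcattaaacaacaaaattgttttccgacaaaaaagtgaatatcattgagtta
PCC1 (chr3:7846834-7847083, minus strand): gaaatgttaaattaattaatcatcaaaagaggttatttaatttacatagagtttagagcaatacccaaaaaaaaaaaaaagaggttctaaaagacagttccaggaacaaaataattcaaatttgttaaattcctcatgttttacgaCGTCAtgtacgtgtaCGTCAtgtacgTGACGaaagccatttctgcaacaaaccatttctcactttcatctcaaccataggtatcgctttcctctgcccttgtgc
WRKY70 (chr3:20910624-20910873, minus strand): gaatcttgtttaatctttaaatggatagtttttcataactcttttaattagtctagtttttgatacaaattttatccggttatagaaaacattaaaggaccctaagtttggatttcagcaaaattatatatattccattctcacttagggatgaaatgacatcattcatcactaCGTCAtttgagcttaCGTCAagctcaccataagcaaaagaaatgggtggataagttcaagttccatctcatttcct
A match is a description of letters and not of binding. In EDS5 the 2 W-boxes start at -234 and -105, and in EDS1 the single one starts at -97. The windows of ICS1, PAD4, ACD6, PR1 and BGL2 held none of these letters, and all of these genes but PR1 were called in a comparison below.

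The accessions were compared first, to ask how far the pathway differs between the parents. PCC1, BGL2 and WRKY70 were higher in C24 and ACD6 was lower. PCC1 averaged 26.9 ± 16.6 RPKM (SD, n = 3) in the C24 libraries, 17.3 times the Col mean of 1.55 ± 1.25 (log2 fold change of RPKM + 1 of 3.38, SE 0.54, limma adjusted p = 0.00105). BGL2 averaged 5.21 ± 0.639 against 0.507 ± 0.227 RPKM (10.3-fold, log2 fold change 2.05, SE 0.50, adjusted p = 0.0133). It reached 1 RPKM in no Col library and entered the test only through C24 and hybrid libraries, where it is high. WRKY70 averaged 39.6 ± 19.3 against 11.8 ± 6.29 RPKM (3.36-fold, log2 fold change 1.66, SE 0.52, adjusted p = 0.0416). ACD6 averaged 1.42 ± 0.155 RPKM in C24 against 3.40 ± 0.375 in Col, 0.419 times the Col level (log2 fold change -0.86, SE 0.22, adjusted p = 0.0154). Within replicate numbers 1, 2 and 3 the C24 to Col ratio was 40.1, 4.18 and 40.9 for PCC1, 6.57, 10.7 and 18.5 for BGL2, 3.13, 2.98 and 4.07 for WRKY70, and 0.503, 0.328 and 0.446 for ACD6, so that each pair of libraries showed the direction.

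The other 6 genes did not pass between the accessions. PR1 had a log2 fold change of 0.66 with an SE of 1.09 (limma adjusted p = 0.718), and its C24 to Col ratio was 3.21, 0.146 and 4.41 in numbers 1, 2 and 3. PR5 had a log2 fold change of -0.40 (adjusted p = 0.53), although no C24 library reached a Col library. In all, 3 of 10 genes were higher and 1 was lower, where 22.7% of 17927 genes were called in either direction, 10.3% higher and 12.4% lower. BGL2, among the 3 higher, entered the test only through C24 and hybrid libraries. The median log2 fold change was 0.57 over the 10 genes and -0.01 over all genes. With the replicate number as a block, ICS1 (adjusted p = 0.00275), EDS5 (0.0356) and PAD4 (0.00106) were also higher, which made 6 higher and 1 lower against 41.8% of all genes (20.2% higher, 21.5% lower). The WRKY70 call was lost without Col 2 (adjusted p = 0.14), Col 3 (0.107), C24 1 (0.137), C24 3 (0.1), Col/C24 3 (0.0546) or C24/Col 2 (0.0566), and the ACD6 call without Col 2 (0.0568) or C24 2 (0.0516). The BGL2 call was lost with the ribosomal RNA share in the model (0.0884), without replicate 1 libraries (0.0614) and without libraries above 2% ribosomal RNA (0.171). Ribosomal RNA made up at most 0.441% of C24 libraries and over 2% of 2 of the 3 Col libraries, and with that share in the model 1 gene was higher (PCC1) and 1 lower (ACD6). ICS1 passed without C24/Col 3 (0.047). Heat-response genes summed to 60.01 to 609 RPKM in C24 and 20.2 to 128 in Col (0 of 8 called, 6 higher with the block), and the 5 root markers to 109 to 113 in C24 and 70.9 to 96.6 in Col, with 2 or 3 of them at 0 in each library. That root sum is nearly all PYK10, the 1 root marker tested and called higher in C24, while PHT1;1 stood at 0.45 to 0.66 RPKM in Col and 0.03 to 0.05 in C24. The part of these markers in the results was not tested.

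**Figure D3:**
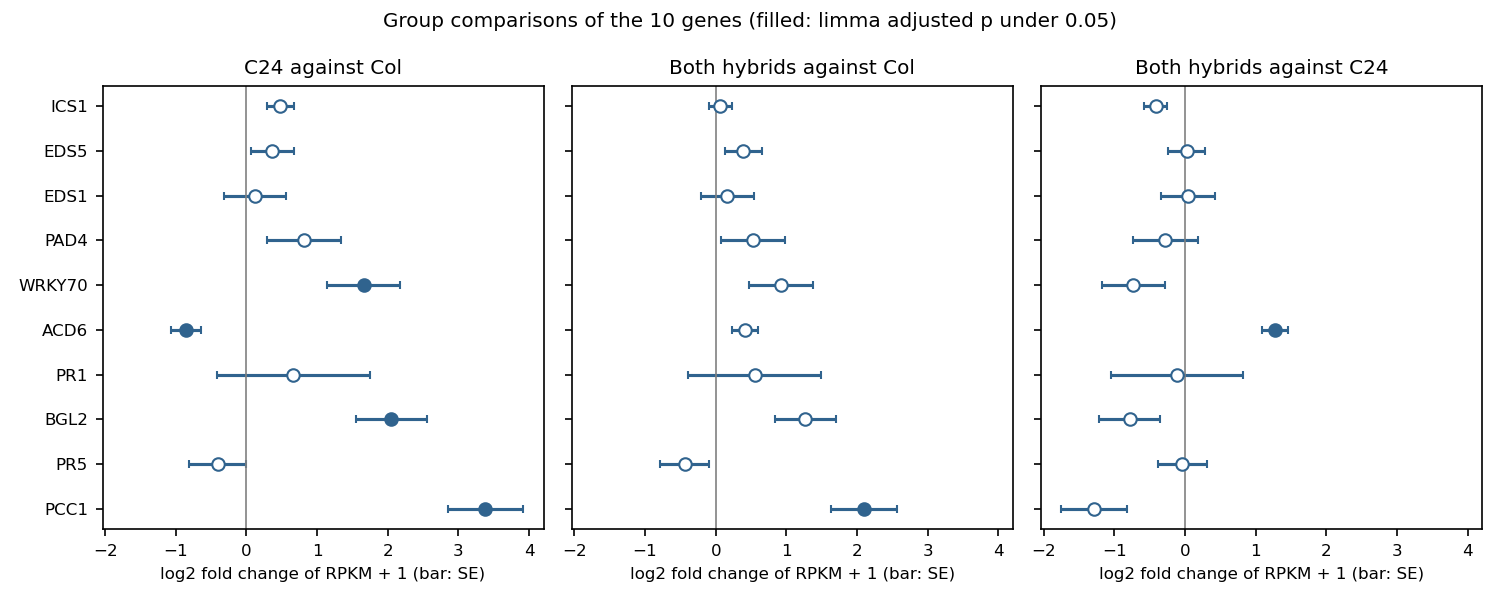
Log2 fold changes of RPKM + 1 with their SE for the 10 genes (rows) in 3 comparisons, filled where limma's adjusted p was under 0.05. PCC1 lies at 3.38 in C24 against Col and 2.09 in the hybrids against Col, and ACD6 at -0.86 in C24 against Col and 1.27 in the hybrids against C24.

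The rest of the pathway was read from 56 further genes, of which 43 were tested. Between the accessions 8 of them were higher in C24, 1 was lower and 34 did not pass. LURP1, a late defence gene, averaged 7.45 ± 3.43 RPKM in C24 against 1.28 ± 1.39 in Col (log2 fold change 1.96, limma adjusted p = 0.0245). PAL3, a phenylalanine ammonia-lyase of the second route to the hormone, averaged 17.1 ± 0.846 against 7.03 ± 1.44 RPKM (log2 fold change 1.19, adjusted p = 0.000109), and the NPR1 partner TGA5 averaged 11.3 ± 0.473 against 6.92 ± 0.839 (0.64, adjusted p = 0.00183). UGT74F2, which glucosylates salicylic acid, was the lower one at 32.1 ± 7.99 against 66.4 ± 7.95 RPKM (-1.04, adjusted p = 0.00148). The other 5 higher genes, named after their values were seen, were MES9, TGA1, NRG1.2, AED1 and PNP-A. The response genes AED1 (0.13 to 0.27 RPKM in Col) and PNP-A (0 to 0.39) reached 1 RPKM in no Col library. They entered the test only through C24 and hybrid libraries, where they are high. By role, 3 of 9 response genes, 2 of 12 perception genes, 1 of 3 turnover genes, 1 of 10 regulators and 1 of 9 synthesis genes were higher, beside 10.3% of all genes, and differences between roles were not tested. The median log2 fold change over the 43 genes was 0.13. The block gave 14 higher and 9 lower genes, beside 20.2% and 21.5% of all genes.

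The hybrids were then set against each parent, with the libraries of both hybrids pooled into 1 group of 6. These comparisons share the hybrid libraries, and the parental libraries with the first comparison. Against Col, PCC1 was higher in the hybrids, at 9.99 ± 4.79 RPKM (SD, n = 6) against 1.55 ± 1.25 (log2 fold change 2.09, SE 0.47, limma adjusted p = 0.0151). BGL2 averaged 3.82 ± 4.03 RPKM in the hybrids (log2 fold change 1.27, SE 0.43, adjusted p = 0.0852) and WRKY70 23.9 ± 12.2 (0.92, SE 0.45, adjusted p = 0.222). PCC1 was 1 of 10 genes called, where 12.5% of all genes were, 4.17% higher and 8.29% lower. It did not pass without Col 1 (adjusted p = 0.0585), without Col 3 (0.0779) or without all replicate 1 libraries (0.0769), and BGL2 did pass without C24/Col 3 (1.63, adjusted p = 0.00157). With the replicate block 6 genes were higher, against 29.9% of all genes called (11.3% higher, 18.5% lower). The 5 added were WRKY70 (adjusted p = 0.00198), PAD4 (0.00866), BGL2 (0.019), EDS5 (0.0194) and ACD6 (0.0429).

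Of the 43 pathway genes, PAL3 (13.7 ± 1.76 RPKM in the hybrids, log2 fold change 0.88, limma adjusted p = 0.000878) and NRG1.2 (5.26 ± 0.43 against 3.84 ± 0.351, 0.37, adjusted p = 0.0164), a helper immune receptor, were higher than in Col. UGT74F2 was lower (36.0 ± 5.20 RPKM, -0.87, adjusted p = 0.00405). AED1 and PNP-A, which entered the test only through C24 and hybrid libraries, were also higher. That made 4 higher and 1 lower, with 38 not passing, beside 4.17% of all genes called higher and 8.29% lower. The median log2 fold change over the 43 genes was 0.09, beside -0.04 over all genes. Under the replicate block 8 were higher and 3 lower, beside 11.3% and 18.5% of all genes. Heat-response genes summed to 21.3 to 265 RPKM in the hybrids (0 of 8 called against Col, 3 higher with the block), and their part was not tested. The 5 flower markers summed to 1.34 to 2.19 RPKM in the hybrids, 2.51 to 2.97 in Col and 3.05 to 4.12 in C24, with 0 to 3 of them at 0. Most of that sum is SEP3, the 1 flower marker tested. SEP3 was called lower in the hybrids than in Col (log2 fold change -0.43, though not under a common scaling) and than in C24 (-0.80). The part of the flower markers was not tested.

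Against C24, ACD6 was the only one of the 10 genes called. It averaged 5.05 ± 1.70 RPKM in the 6 hybrid libraries against 1.42 ± 0.155, 3.55-fold (log2 fold change 1.27, SE 0.19, limma adjusted p = 0.00162), and every hybrid library lay above every C24 library. Of all genes 7.52% were called, 3.68% higher and 3.85% lower. The ACD6 call stood under each of the 20 alternatives run, at 1.16 to 1.70. PCC1 had a log2 fold change of -1.29 (SE 0.47, adjusted p = 0.138), ICS1 of -0.42 (SE 0.17, 0.185) and WRKY70 of -0.73 (SE 0.45, 0.411). With the replicate block these 3 were lower in the hybrids (adjusted p = 0.0343, 0.00626 and 0.00956), where 22.2% of all genes were called (8.73% higher, 13.4% lower). Of the 8 heat-response genes 5 were also lower in the hybrids with the block and none without it (median log2 difference -1.1), and their part was not tested. Among the 43 pathway genes TGA5 was lower in the hybrids (8.14 ± 1.1 against 11.3 ± 0.473 RPKM, -0.43, adjusted p = 0.0184), and 42 did not pass. The block gave 3 higher and 9 lower among them.

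The mid-parent, averaged in RPKM from 1 Col and 1 C24 library that share a replicate number, is the level that additive expression would give. None of the 10 genes was called against it by limma, in Col/C24 (0.0335% of all genes called, 0.00558% higher and 0.0279% lower, and 1587 genes at an unadjusted p under 0.05) or in C24/Col (0.0502% called, 0.0223% higher and 0.0279% lower, and 1089 genes). ACD6 came nearest. Its mid-parent was 2.41 ± 0.110 RPKM, against 4.41 ± 1.68 in Col/C24 (log2 fold change 0.62, SE 0.23, unadjusted p = 0.0271, adjusted p = 0.529) and 5.69 ± 1.78 in C24/Col (0.94, SE 0.23, unadjusted p = 0.00337, adjusted p = 0.507). With the replicate block ACD6 was above the mid-parent in both hybrids (adjusted p = 0.0454 and 0.0177), where 2.90% of all genes were called in Col/C24 (0.296% higher, 2.60% lower) and 1.57% in C24/Col (0.731% higher, 0.842% lower). The 2 comparisons share the mid-parent profiles. PCC1 stood at 8.44 ± 4.11 and 11.5 ± 5.78 RPKM beside a mid-parent of 14.2 ± 7.93, and WRKY70 at 19.8 ± 13.0 and 28.0 ± 12.4 beside 25.7 ± 12.7.

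Between the hybrids, which asks whether the direction of crossing matters, no gene of the 10 and none of the 17927 was called by limma, with or without the block (745 genes at an unadjusted p under 0.05 without it). The largest difference was in BGL2, at 6.38 ± 4.47 RPKM in C24/Col against 1.27 ± 0.973 in Col/C24 (log2 fold change 1.49, SE 0.50, unadjusted p = 0.013, adjusted p = 0.935). PR5 followed, at 4.96 ± 3.59 against 1.58 ± 0.311 (0.99, SE 0.40, unadjusted p = 0.0333, adjusted p = 0.935). The libraries overlapped for both genes, because C24/Col replicate 3 lay near the Col/C24 level. The median log2 fold change was 0.34 over the 10 genes and 0.08 over all genes, and 0.26 and 0.003 under a common scaling of the libraries.

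Replicate numbers were compared because they mark libraries that deviated together, with each number holding 1 library of each group. The 4 libraries of a number are therefore not independent replicates of it. P-values between numbers measure the spread left after group and number, and not how a number would vary if repeated. PAD4, WRKY70, EDS1 and EDS5 were higher in replicate 1 than in replicates 2 and 3. PAD4 averaged 13.3 ± 4.92 RPKM in the 4 libraries of replicate 1 (SD, n = 4), against 5.29 ± 1.07 in replicate 2 and 4.46 ± 0.782 in replicate 3 (log2 fold change 1.22, SE 0.11, limma adjusted p = 8.94e-06). EDS1 averaged 13.6 ± 1.91 against 7.73 ± 0.535 and 5.35 ± 0.364 (0.96, SE 0.07, adjusted p = 2.67e-06). WRKY70 averaged 38.6 ± 16.7 against 15.7 ± 8.38 and 20.1 ± 12.9 (1.14, SE 0.14, adjusted p = 0.000119), and EDS5 2.14 ± 0.501 against 1.08 ± 0.401 and 0.875 ± 0.145 (0.66, SE 0.09, adjusted p = 0.00027). In each of the 4 groups the replicate 1 library was the highest for these 4 genes.

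None of the 4 response genes passed, although all 4 had positive log2 fold changes. PR1 had a log2 fold change of 1.11 with an SE of 0.72 (limma adjusted p = 0.259), and PCC1, PR5 and BGL2 had 0.32, 0.35 and 0.23. For each of these 4 genes replicate 1 was above both other replicates in 1 of 4 groups. ICS1 had 0.19 (SE 0.07, adjusted p = 0.0729), and passed without Col 3 (0.0365), without C24/Col 2 (0.0347) or under a common scaling (0.0491). ACD6 had -0.24 (SE 0.12, adjusted p = 0.143), and passed as lower without C24 1 (0.0489) or C24 2 (0.02). In all 4 of 10 genes were higher and none lower, where 34.1% of all genes were called, 16.6% higher and 17.5% lower. The difference between response genes and regulators was not tested as such.

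Of the 43 other pathway genes 18 were higher in replicate 1, 2 were lower and 23 did not pass, with a median log2 fold change of 0.23 beside -0.04 over all genes. WRKY18, a defence transcription factor, averaged 45.2 ± 17.0 RPKM in replicate 1 against 3.63 ± 0.506 and 6.65 ± 0.830 (log2 fold change 2.87, limma adjusted p = 6.6e-07). CBP60G and SARD1, which bind and activate the ICS1 promoter, averaged 41.3 ± 12.1 RPKM against 6.49 ± 3.37 and 4.60 ± 4.13 (2.83, adjusted p = 1.48e-06) and 6.68 ± 2.27 against 1.30 ± 0.442 and 1.02 ± 0.153 (1.79, adjusted p = 5.24e-06). By role, 7 of 10 regulators, 2 of 3 turnover genes and 4 of 12 perception genes were higher. So were 2 of 9 response genes and 3 of 9 synthesis genes, a list that holds CBP60G and SARD1. Lower were 1 turnover and 1 synthesis gene. Of all genes 16.6% were called higher and 17.5% lower. Differences between roles were not tested. Heat-response genes moved with the same number. They summed to 128 to 609 RPKM in the replicate 1 libraries and to 20.2 to 75.6 RPKM in the others, and 7 of 8 were called higher. Their part in the values of the salicylic acid genes was not tested.

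**Figure D4:**
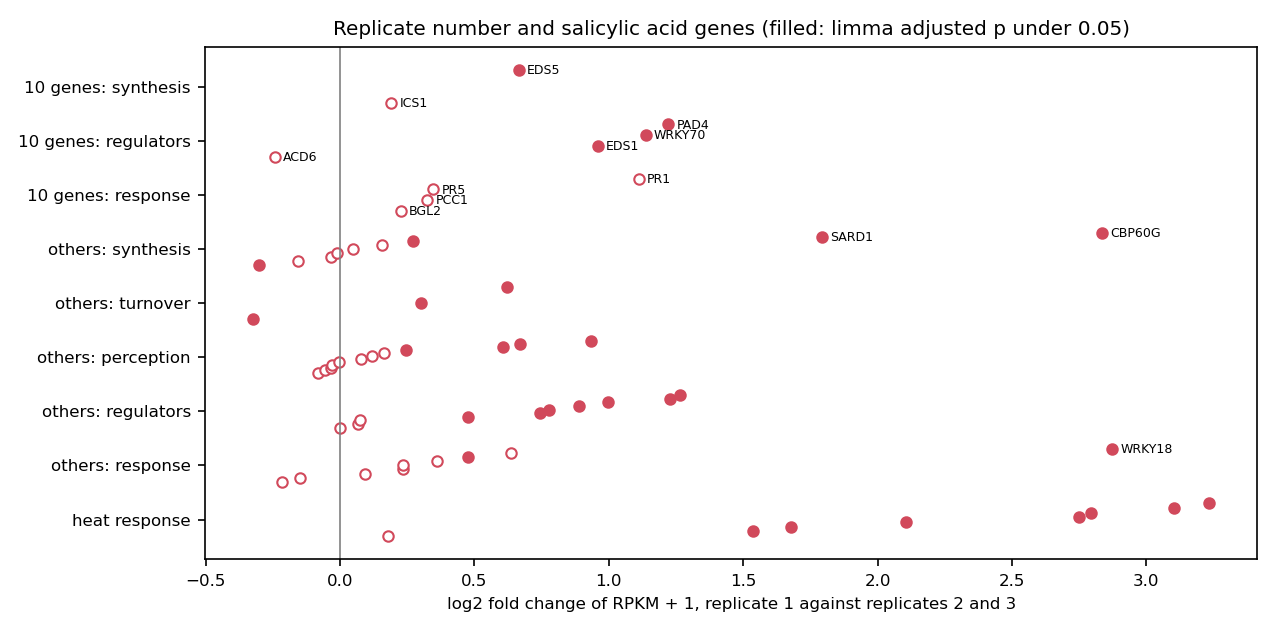
Log2 fold change of RPKM + 1 in replicate 1 against replicates 2 and 3 for each tested gene, by list and role (rows), filled where limma's adjusted p was under 0.05. EDS1, PAD4 and WRKY70 lie between 0.96 and 1.22, the 4 response genes among the 10 are open circles, and the heat-response genes reach 3.23.

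Replicate 3 differed from replicate 2 in fewer of the genes. EDS1 (log2 fold change -0.46, SE 0.08, limma adjusted p = 0.00474) and ICS1 (-0.41, SE 0.09, adjusted p = 0.0109) were lower in replicate 3, in all 4 groups, where 12.5% of all genes were called, 5.68% higher and 6.82% lower. WRKY70 had 0.32 (SE 0.17, adjusted p = 0.248) and passed as higher without C24/Col 2 (0.0191). PCC1 and ACD6 passed as lower without C24 2 (-1.32 and -0.47, adjusted p = 0.00264 and 0.0263). Of the 43 pathway genes 3 were higher and 2 lower. WRKY18 (0.72, adjusted p = 0.0372, and 0.0518 under a common scaling), SAG101 (0.34, 0.0105), which partners EDS1, and PAL3 (0.27, 0.0215) were the higher ones, and the second isochorismate synthase ICS2 (-0.64, 0.00307) and PAL1 (-0.34, 0.0106) the lower ones.

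The mean of the 10 genes' standardised values, itself standardised again over the 12 libraries, was highest in C24/Col replicate 1 (1.73) and lowest in Col replicate 3 (-1.23), on a scale that differs from that of the colour map. The 5 genes outside the pathway closest to this profile, by the mean absolute difference between standardised log2 profiles, were AT1G03730 (0.28 SDs), GPAT2 (0.289), OPCL1 (0.299), ACHT2 (0.304) and AT2G41770 (0.322). OPCL1 encodes a peroxisomal ligase of jasmonate synthesis and GPAT2 an acyltransferase. Within the 10 genes this distance ran from 0.415 SDs for EDS5 to 1.23 for ACD6, the gene least like the mean. The 5 outside genes were picked for the smallest distances among all tested genes on these same libraries. Their distances therefore cannot be set against those of the 10.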

How the data were processed

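Oligo(dT)-selected RNA of 12 shoot libraries was sequenced, and alignment with TopHat to TAIR10 is given per the submitters' processing notes. No source used here names the counter, annotation version or filters. Each library's deposited table holds an RPKM value of 2 decimals per gene, as the authors computed it, and no header. The unit was read from the values: in genes of 150 to 600 bp, value times length took multiples of 1 constant per library (60.6% to 74.1% whole within 0.15 of a read), which also gave the depth. Of 33559 identifiers 567 occurred more than once and were left out, and 32992 were used.

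The 17927 genes that reached 1 RPKM in 3 or more libraries entered limma 3.58.1 in R 4.3.3, on log2(RPKM + 1), a scale that understates changes of low genes, with moderated variances and a trend. The Benjamini-Hochberg adjustment ran over all genes tested, with a threshold of 0.05. Group contrasts used all 12 libraries, mid-parent contrasts the 6 hybrid libraries and 3 mid-parent profiles, and replicate numbers were compared in a fit with group as a term. Alternatives were the replicate number as a block, a pseudocount of 0.1, no filter, a common scaling (median of ratios), fits of the compared groups alone, the ribosomal RNA share as a covariate, a geometric mid-parent and leaving out each library. Same-numbered libraries correlated at 0.54 to 0.83 and others at -0.65 to 0.19 in their deviations from group means, so that by the data the numbers pair libraries. The labels name no shared batch. The fits were tested on simulated data.

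The 10 genes and all lists were chosen with earlier results of these data known. Named pathway genes are the up to 3 largest passing rises and falls per comparison with at least 5 RPKM in the higher group. Others are named after their values were seen. Close copies were sought with blastn 2.17.0, and other work used Python 3.11.15 with pandas 2.3.3 and numpy 2.4.6.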

Additional observations from a re-analysis of the deposited data

Results flagged for a closer look

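ACD6 was the gene among the 10 whose replicate 1 library stood on opposite sides of replicates 2 and 3 in different groups. On the log2(RPKM + 1) scale replicate 1 lay below both others in Col (by a mean of -0.157), Col/C24 (-0.507) and C24/Col (-0.419), and above both in C24 (0.113). The difference between the groups was not tested, since each group has 1 library of that number.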

How the results depend on the processing

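No called gene of the 10 changed direction under any alternative run. Between the accessions, the number of genes higher in C24 (3 of 10) became 6 with the replicate block, 1 when ribosomal RNA content was a covariate, and 1 without the 4 libraries above 2% ribosomal RNA, where the number lower (1) became 0. That last fit and the one without replicate 1 libraries were chosen after seeing the data, and the former keeps a single library of Col and of Col/C24, each assumed to vary like the other groups. There BGL2 (2.23, limma adjusted p = 0.171), WRKY70 (1.82, 0.145), ACD6 (-0.83, 0.128) and, in the hybrids against Col, PCC1 (3.02, 0.204) did not pass. BGL2 did not pass with the covariate (1.62, limma adjusted p = 0.0884) or without replicate 1 libraries (2.19, 0.0614), nor WRKY70 with the covariate (1.69, 0.113) or without the filter (0.0573), while PAD4 passed without replicate 1 libraries (0.54, 0.0421). Genes of the 10 higher in the hybrids than in Col (1) became 6 with the block and 0 without replicate 1 libraries or without the 4 libraries, and those lower than in C24 (0) became 3 with the block. With the block 1 gene, ACD6, was above the mid-parent in each hybrid, against 0 without it. Genes lower in replicate 3 than in replicate 2 (2) became 0 without the 4 libraries. Calls over all genes tested moved as well. Between the accessions they went from 4071 to 7490 with the block and to 2904 with the covariate. In the hybrids against Col they went from 2233 to 5357 with the block and to 1311 without replicate 1 libraries. Without the 4 libraries fewer of all genes were called in both comparisons, and also in replicate 3 against replicate 2. The cause of these changes was not tested. Beyond the calls named beside the results, the block changed none of the 10 genes.

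Leaving out 1 library at a time gave 2 to 4 genes higher and 0 to 1 lower in C24, 0 to 2 higher in the hybrids than in Col, 4 to 5 higher and 0 to 1 lower in replicate 1, and 0 to 1 higher and 2 to 4 lower in replicate 3 against replicate 2. The counts of the other comparisons did not move. The 4 calls in replicate 1 passed in all 17 alternatives. PR1 rests on few reads in single libraries. Its 0.24 RPKM in C24 replicate 2 is an estimated 4.66 reads at a depth of 21.5 M, beside 213 reads at 21.4 M in C24 replicate 3. In C24/Col replicate 3, at 15.6 M, it had none. The part of depth in these values was not tested.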

Other observations

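The 13 pathway genes that were too low to be tested include the next step of synthesis and the signals of systemic resistance. PBS3, the enzyme that conjugates the exported precursor, stood at 0.90, 0.67 and 0.70 RPKM in C24 and at 0.24, 0.06 and 0.27 in Col, so that the accessions did not overlap. In the hybrids it ran from 0.22 to 1.33 RPKM, the highest value being that of C24/Col replicate 2. GRX480, a glutaredoxin induced by salicylic acid, stood at 2.95, 0.23 and 0.31 RPKM in C24, was listed at 0 in Col replicates 1 and 3 and stood at 0.06 in Col replicate 2. FMO1 and ALD1, which make the mobile signal of systemic resistance, did not exceed 0.53 and 0.40 RPKM in any library, and both were highest in C24/Col replicate 2. WRKY38 and WRKY62 did not exceed 0.21 and 0.11 RPKM. These genes were picked out after their values were seen, and none was tested.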
